A study of Homo sapiens with 6 samples.

Results

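The genes described are 43 members of the ubiquitin system, chosen by name from the 57905 genes in the count files: ubiquitin and ubiquitin-like E1 enzymes and their partners (7 genes), NEDD4-type HECT ligases (7), HERC proteins (6), other HECT ligases (9), UBR proteins (5), U-box ligases (2), BIRC6, and cullins (6). Total RNA (5 μg a reaction) of H929, an established human multiple myeloma cell line, was incubated in cleavage buffer at 37 °C, either with recombinant IRE1 (2 μg of residues 467 to 977 of human ERN1, the cytoplasmic part with the kinase and the RNase) or with no enzyme added, in both cases for 1 h. Both reactions were ended at 95 °C for 5 min, and poly(A) RNA was then sequenced from 3 IRE1-treated and 3 control samples, which the submitters describe as biological replicates of the line. The RNA was purified before the reaction, so neither cells nor their proteins met the enzyme, and a single line stands for myeloma. Of the 43 genes, 42 passed the filter on low counts and were tested. HERC6, an interferon-induced HERC protein, had 0 to 4 reads in each library and was not tested.

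Ubiquitin is activated by an E1 enzyme, passed to an E2 conjugating enzyme and attached to a substrate with the help of an E3 ligase. HECT ligases take the ubiquitin onto a cysteine of their own before they hand it on, UBR proteins include the readers of destabilizing N-terminal residues, U-box ligases and cullin complexes bring a charged E2 to the substrate, and cullins are scaffolds that are switched on by attachment of NEDD8. Many of the proteins marked in this way are degraded by the proteasome, the target of bortezomib in myeloma. IRE1 is the stress sensor of the endoplasmic reticulum whose RNase cuts XBP1 mRNA, and other mRNAs in regulated IRE1-dependent decay, within a short motif that lies in the loop of a hairpin.

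The motif was searched for in the longest annotated transcript of each gene on the sense strand. The consensus used was C, then A, C or U, then G, then C, then A or C, then A or G. A site was counted where RNAfold left the third base, the G after which XBP1 mRNA is cut, unpaired in a hairpin loop. Loops had to hold 5 to 11 bases, and 3 or more pairs had to close them. Only the third base had to be unpaired, and a loop of 5 bases cannot hold all 6 bases of the motif. Below, each sequence is a stretch of the transcript on GRCh37, written as DNA with the 6 bases of the motif in capitals. The first set holds the sites with CUGCAG, the motif of XBP1 mRNA, in BIRC6 and UBE4A, which were among the lowest genes, and in HECTD3, the only gene that was higher.
BIRC6, chr2:32582533-32582538, exon 1 of 73, coding: tcgggggccacaCTGCAGgcctccgcgctc
UBE4A, chr11:118250204-118250209, exon 11 of 20, coding: aatctgcatcggCTGCAGgttgcctggcgg
HECTD3, chr1:45476340-45476345, exon 2 of 21, coding: ggcgactgcgggCTGCAGgaaggctggctg
The coordinates are those of the motif, and HECTD3 lies on the minus strand. The BIRC6 site began at 1.88% of the transcript's length. BIRC6 also had loop sites of the consensus with other letters, from 13.37% to 96.46% of the length. The study folded the mRNAs of BIRC6, CUL5 and UBR3 too. It did not name them among those with the consensus in a stem-loop near the cleavage region.

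CUL5 and UBR3 had no CUGCAG in such a loop, although both were among the lowest genes. CUL5 has 2 loop sites of the consensus and UBR3 has 8, all of which differ from it. The ones shown, with CUGCAA, share its first 5 bases. The CUL5 site lay in a loop of 5 bases closed by 7 pairs, and the first of the 2 UBR3 sites with these letters in a loop of 10 bases closed by 4 pairs.
CUL5, chr11:107944211-107944216, exon 10 of 19, coding: cacgatttcttaCTGCAAgagataaggcgt
UBR3, chr2:170782174-170782179, exon 14 of 39, coding: gtaagaaatggtCTGCAAatcaaaggacaa
The last set shows 2 pairs of related genes that share a loop site. The 30 bases shown differed at 4 positions between UBA1 and UBA7 and at 2 positions between CUL7 and CUL9.
UBA1, chrX:47065838-47065843, exon 16 of 26, coding: atcgagcacaccCTGCAGtgggctcgggat
UBA7, chr3:49847411-49847416, exon 14 of 24, coding: gccgagcacaccCTGCAGtgggcccggcat
CUL7, chr6:43006649-43006654, exon 23 of 26, coding: ggctgggctgagCTGCAGtttgggaaccag
CUL9, chr6:43180958-43180963, exon 27 of 41, coding: ggccgggctgagCTGCAGtttgggaagcag
None of these 4 genes passed the test between IRE1-treated and control samples, and their values are given with their classes.

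The libraries held 19615715 to 25678499 gene counts each. Their TMM scaling factors were 1.02 to 1.03 for the controls, while IRE1-treated replicates 1, 2 and 3 had 0.947, 0.980 and 0.996. Values below are normalized counts, in which each count was divided by the TMM-scaled size of its library and set to the size of an average one. Where 3 values of a group are given, they are those of replicates 1, 2 and 3 in that order. BLOC1S1, a known IRE1 substrate, had 607, 584 and 651 normalized counts in the controls and 276, 230.4 and 212 in the IRE1-treated samples (log2 fold change -1.37 ± 0.09 SE, adjusted p = 1.25e-06). XBP1 had a log2 fold change of -0.09 ± 0.04 SE and did not pass the test over the whole gene (adjusted p = 0.143). Every IRE1-treated library of XBP1 still lay below every control, and its unadjusted p was under 0.05. With a trend over transcript length and GC content removed, as described below, XBP1 was lower. Reads upstream and downstream of a cut enter the same gene count, and exon counts were not analysed here. All 9 plasma cell markers were expressed, with control means from 529 (CD38) to 85582 (JCHAIN). Of 12 markers of other cell types, 10 did not pass the filter, and CD3E, a T cell gene, had 919 in the controls and 1032 in the IRE1-treated samples (adjusted p = 0.132). Each sample was sequenced in its own lane, so lane and sample cannot be told apart.

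After incubation with IRE1, 17 of the 42 tested genes had lower counts and 1 had higher counts at an adjusted p under 0.05 (edgeR's quasi-likelihood test, Benjamini-Hochberg adjustment over 14398 genes). Over all tested genes, 12.4% were lower and 10.3% were higher. The lower genes were 11 of the 21 tested HECT ligases including the HERC proteins, 3 of the 5 UBR proteins, UBE4A, BIRC6 and CUL5. When libraries were scaled by their size alone, 21 of the 42 genes were lower and 0 higher, beside 18.03% and 4.74% of all genes. BIRC6 fell to 65.8% of its control mean, CUL5 to 67.7%, HECTD4 to 70.0%, UBR3 to 71.2% and UBE4A to 74.9%. HECTD3 rose to 112%. The log2 fold changes ranged from -0.60 to 0.16 with a median of -0.16, beside a median of 0.0045 over all tested genes, and 33 of the 42 were below 0 (36 with library size alone). The 3 IRE1-treated libraries did not lie equally far from the control mean, with medians over the 42 genes of -0.27, -0.18 and -0.089 on the log2 scale in replicates 1, 2 and 3.

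The groups did not overlap for 20 genes in which every IRE1-treated library lay below every control library, and for 2 genes, SAE1 and HECTD3, in which every one lay above. Over all tested genes these shares were 20.0% and 19.1%. With 3 against 3 samples, an exact permutation test of a single gene cannot go below 0.1 (two-sided), so the calls rest on the fit across all genes. When each library was left out in turn, ITCH, HERC1, HECTD4, UBR1, UBR3, UBR4, UBE4A, BIRC6 and CUL5 were lower in all 6 fits. The other 8 lower genes were each lost in at least 1 of them. The count of lower genes fell to 10 (23.81% of the 42) when control replicate 1 was left out. It fell to 9 (21.43%) without control replicate 2 and to 11 (26.19%) without IRE1-treated replicate 2. Over all genes the lower share fell too in these fits, from 12.4% to 6.68%, 6.82% and 7.42% in the same order. Of the 8 genes lost in a fit, WWP1 depended on control replicate 2 alone, and AREL1 on control replicates 1 and 2. HUWE1, UBE3C and TRIP12 each needed control replicates 1 and 2 and IRE1-treated replicate 2, and NEDD4 needed all controls and IRE1-treated replicate 2. HERC2 was lost when replicate 1 or 2 of either group was left out, and HERC3 in every fit except that without IRE1-treated replicate 3. HECTD3 likewise passed only without IRE1-treated replicate 3. Of the 18 genes called, ITCH, HERC3 and UBR4 share exons with another annotated gene on the same strand, and HERC1, HECTD3, HECTD4, WWP1, UBE4A, BIRC6 and CUL5 with one on the other strand, so that some of their reads may belong to the neighbour.

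**Figure D1:**
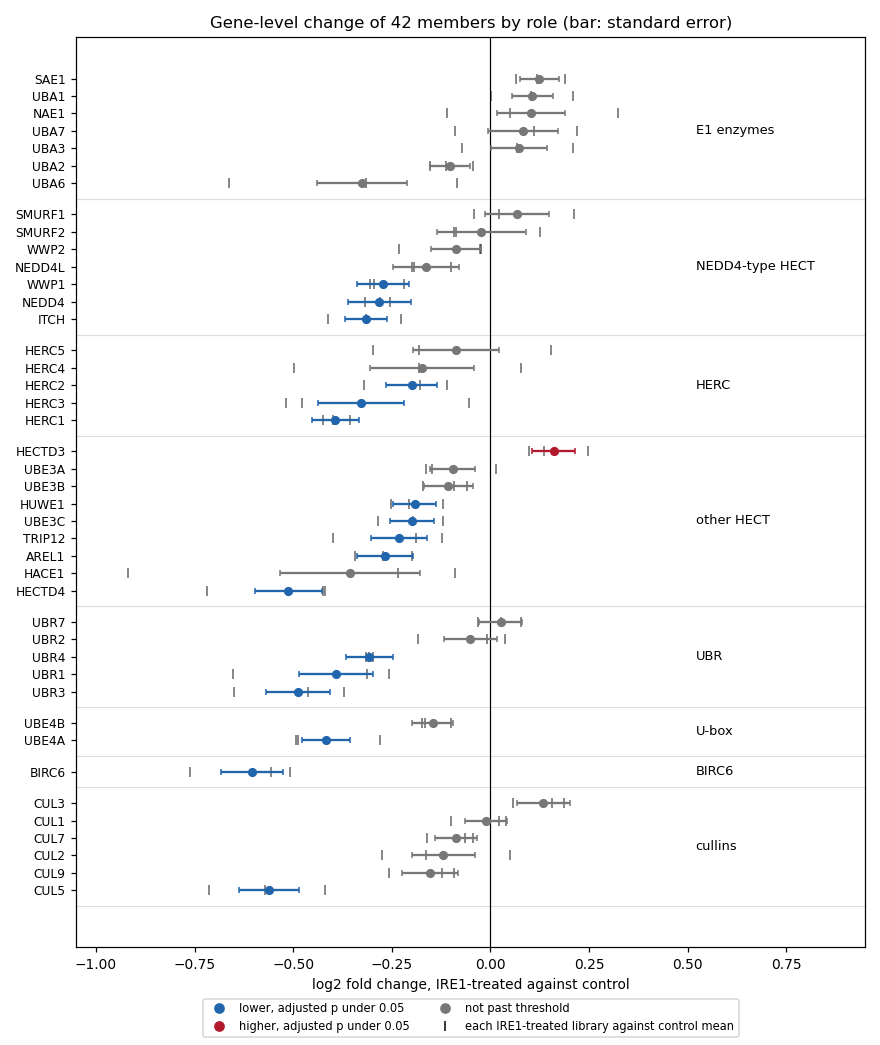
Log2 fold change of the 42 tested genes (horizontal axis, IRE1-treated against control) with its standard error, grouped by role, with a tick for each of the 3 IRE1-treated libraries against the control mean. The E1 enzymes other than UBA2 and UBA6 sit above 0 (UBA3 was at -0.0040 with library size alone), BIRC6 (-0.60) and CUL5 (-0.56) lie farthest below 0, and HECTD3 (0.16) is the only gene called higher.

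None of the 7 E1 enzymes and partners passed the test, while 2 of them, SAE1 and UBA6, had an unadjusted p under 0.05, and DESeq2 and limma each called UBA6 lower. The log2 fold change was above 0 for 5 of the 7 (median 0.08), and for 4 with library size alone, where UBA3 was at -0.0040. UBA1, the main E1 of ubiquitin, had the highest count of all 43 genes, with 9179.8, 9199.6 and 9362 in the controls and 10689, 9923 and 9248 after IRE1 treatment (log2 fold change 0.11 ± 0.05 SE, adjusted p = 0.165). SAE1, which pairs with UBA2 to activate SUMO, had 3286, 3246 and 3379.6 in the controls and 3584, 3763 and 3455 in the IRE1-treated samples. All IRE1-treated values of SAE1 lay above the controls, by a log2 fold change of 0.12 ± 0.05 SE that did not pass (adjusted p = 0.0775). UBA2 went the other way within that pair, at -0.10 ± 0.05 SE (adjusted p = 0.172). NAE1 and UBA3, the pair that activates NEDD8 for the cullins, were at 0.10 ± 0.09 and 0.07 ± 0.07 SE, and UBA7, the E1 of the interferon-induced modifier ISG15, at 0.08 ± 0.09 SE. UBA6, the second E1 of ubiquitin, has by far the longest transcript of the class (9540 bases) and the lowest log2 fold change. It had 512, 588 and 489 in the controls and 335, 426 and 499 after IRE1 treatment. IRE1-treated replicate 3 lay inside the control range, and the log2 fold change of -0.33 ± 0.11 SE missed the threshold narrowly (adjusted p = 0.0502). UBA6 was past the threshold in 7 of the 15 alternatives. With the length and GC trend removed, its log2 fold change was -0.035 (adjusted p = 0.854).

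Of the NEDD4-type HECT ligases, which carry WW domains that bind PY motifs, 3 of 7 were lower. ITCH, a ligase known from T cell tolerance, had 3139, 3062 and 2945 in the controls and 2292, 2449 and 2606 after IRE1 treatment. Its IRE1-treated values all lay below the controls, and the log2 fold change was -0.32 ± 0.05 SE (adjusted p = 0.000955). NEDD4, the founding member, had 395, 401 and 420.01 in the controls and 325, 334 and 339.9 in the IRE1-treated samples, again without overlap (-0.28 ± 0.08 SE, adjusted p = 0.0183). WWP1 had 653, 665 and 635 and 530.3, 526 and 559 in the same order, with an IRE1-treated group that ended well below the lowest control (-0.27 ± 0.07 SE, adjusted p = 0.00853). Its close relative WWP2 was at -0.09 ± 0.06 SE (adjusted p = 0.349) and NEDD4L, the regulator of epithelial sodium channels, at -0.16 ± 0.08 SE (adjusted p = 0.177). SMURF1, which marks SMAD proteins, was the highest of the class. Its values were 463, 450.4 and 454 in the controls and 463, 528 and 443 after IRE1 treatment, which overlap (0.07 ± 0.08 SE, adjusted p = 0.598). SMURF2 was at -0.02 ± 0.11 SE (adjusted p = 0.911).

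HERC proteins join a HECT domain to RCC1-like repeats, and 3 of the 5 tested were lower. HERC1, one of the giant members (15197 bases), had 1238, 1205 and 1120.02 in the controls and 884, 900.4 and 929 after IRE1 treatment. These IRE1-treated libraries lay close together and all under the controls (-0.39 ± 0.06 SE, adjusted p = 0.000385). HERC2, the other giant (15364 bases), a ligase of the DNA damage response, had 2069, 2099 and 1812 in the controls and 1597, 1761 and 1845 in the IRE1-treated samples. Its IRE1-treated replicate 3 lay above the lowest control, and the change was smaller (-0.20 ± 0.07 SE, adjusted p = 0.0380). GENCODE lists 12 pseudogene entries named after HERC2, with HERC2P7 entered more than once, so its count is uncertain. HERC3 had 378, 375 and 360.3 in the controls and 259, 266 and 357 after IRE1 treatment. IRE1-treated replicates 1 and 2 were far below the controls and replicate 3 just under them (-0.33 ± 0.11 SE, adjusted p = 0.0422), and a second annotated gene of this name shares its exons. HERC4 was at -0.17 ± 0.13 SE (adjusted p = 0.382). HERC5, the ligase that attaches ISG15, had 342, 331 and 379.9 and 286, 309.6 and 390.4, with IRE1-treated replicate 3 above all controls (-0.09 ± 0.11 SE, adjusted p = 0.619).

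Among the 9 other HECT ligases, 5 were lower and HECTD3 was higher. HECTD4 (15759 bases, chr12:112597992-112820243) was the lowest, with 1400.4, 1332 and 1134 in the controls and 783, 964 and 961 after IRE1 treatment. The highest IRE1-treated library was still below the lowest control (-0.51 ± 0.09 SE, adjusted p = 0.000761). AREL1, a ligase that restrains apoptosis, had 627, 632 and 589 and 486, 510.4 and 537 without overlap (-0.27 ± 0.07 SE, adjusted p = 0.0130). TRIP12, which acts on proteins with a fused ubiquitin, had 2824, 2676 and 2373 in the controls and 1990.5, 2301 and 2409.7 in the IRE1-treated samples. Its groups overlapped, since IRE1-treated replicate 3 lay just above control replicate 3 (-0.23 ± 0.07 SE, adjusted p = 0.0298). UBE3C, a ligase that works at the proteasome, had 1859.6, 1761 and 1763 and 1472, 1565 and 1650.2, without overlap (-0.20 ± 0.05 SE, adjusted p = 0.0167). HUWE1 (14796 bases, chrX:53559057-53713697), whose substrates include MCL1 and p53, had 4625, 4721 and 4222 in the controls and 4163, 3798 and 3919 after IRE1 treatment. Here the first IRE1-treated library was the highest of its group, and all of the group stayed under the controls (-0.19 ± 0.05 SE, adjusted p = 0.0183). HECTD3 had 1425, 1369.6 and 1401 in the controls and 1659, 1538 and 1498 in the IRE1-treated samples. Every IRE1-treated value exceeded the controls (0.16 ± 0.05 SE, adjusted p = 0.0450). The strand setting of the counting was not given in the sources used here, and reads of HECTD3 and of UROD, whose exons overlap it on the other strand, cannot be told apart. UBE3A, the Angelman syndrome ligase, was at -0.10 ± 0.06 SE (adjusted p = 0.254), UBE3B at -0.11 ± 0.06 SE (adjusted p = 0.236) and HACE1 at -0.36 ± 0.18 SE (adjusted p = 0.170). HACE1 had the fewest reads of the tested genes, 46 to 132 per library.

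Of the UBR proteins, 3 of 5 were lower. UBR3 (8009 bases, chr2:170683964-170940641) had 772, 742 and 673 in the controls and 464, 529 and 563 after IRE1 treatment. The highest IRE1-treated library lay well under the lowest control (-0.49 ± 0.08 SE, adjusted p = 0.000735). UBR1, the N-recognin whose loss causes Johanson-Blizzard syndrome, had 567, 585 and 522 and 355, 449 and 467, with the first IRE1-treated library the lowest (-0.39 ± 0.09 SE, adjusted p = 0.00751). UBR4 (15892 bases), a giant N-recognin, had 3348, 3237 and 2812 in the controls and 2517, 2529 and 2551 in the IRE1-treated samples. The spread of UBR4 lay in the controls, while its IRE1-treated libraries differed by little (-0.31 ± 0.06 SE, adjusted p = 0.00212). UBR2, the closest relative of UBR1, had 848, 821 and 813 and 848, 728 and 823, and its groups overlapped (-0.05 ± 0.07 SE, adjusted p = 0.642). UBR7, the shortest of the class (3494 bases), had 1233, 1267 and 1254 in the controls and 1224, 1274 and 1319.9 after IRE1 treatment, again with overlap (0.03 ± 0.05 SE, adjusted p = 0.782).

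The 2 U-box ligases UBE4A and UBE4B, mammalian relatives of yeast Ufd2 that extend ubiquitin chains, have transcripts of like length (6088 and 6184 bases). UBE4A had 2506, 2509.7 and 2333 in the controls and 1747, 1741 and 2016 after IRE1 treatment. All of its IRE1-treated libraries lay under the controls, replicate 3 by the least (-0.42 ± 0.06 SE, adjusted p = 0.000328). UBE4B had 1454, 1449.7 and 1475 and 1363, 1295 and 1301, also without overlap, but the log2 fold change of -0.15 ± 0.05 SE did not pass (adjusted p = 0.0517). UBE4B was past the threshold in 4 of the 15 alternatives, namely library size alone, at least 10 counts per library, limma on the authors' CPM, and without IRE1-treated replicate 1. BIRC6, a giant inhibitor of apoptosis that joins E2 and E3 activity in one protein, has the longest transcript of the list (16190 bases, chr2:32582091-32844638) and had the lowest log2 fold change. Its values were 1309.95, 1316 and 1101 in the controls and 733, 844 and 873 in the IRE1-treated samples. The lowest control and the highest IRE1-treated library were far apart (-0.60 ± 0.08 SE, adjusted p = 0.000160).

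Of the 6 cullins, CUL5 was lower and the others did not pass. CUL5 (6171 bases, chr11:107879624-107978488), the scaffold of complexes with SOCS-box proteins, had 825, 879 and 811 in the controls and 564, 511 and 626 after IRE1 treatment. There was a wide gap between the groups (-0.56 ± 0.08 SE, adjusted p = 0.000204). CUL2, the scaffold of the VHL ligase, was at -0.12 ± 0.08 SE (adjusted p = 0.312) and CUL1, the scaffold of the F-box complexes, at -0.01 ± 0.05 SE (adjusted p = 0.910). CUL3, which binds BTB proteins such as KEAP1, had 1142, 1183 and 994 in the controls and 1151, 1233 and 1259 in the IRE1-treated samples. These groups overlapped, and CUL3 was the highest of the class (0.13 ± 0.07 SE, adjusted p = 0.170) despite a transcript longer than that of CUL5 (6756 bases). CUL9, which binds p53, had 616, 659.7 and 621 and 529, 580.2 and 592, and its IRE1-treated values stayed just below the controls without passing (-0.15 ± 0.07 SE, adjusted p = 0.133). CUL7, its closest relative, was at -0.09 ± 0.05 SE (adjusted p = 0.259).

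**Figure D2:**
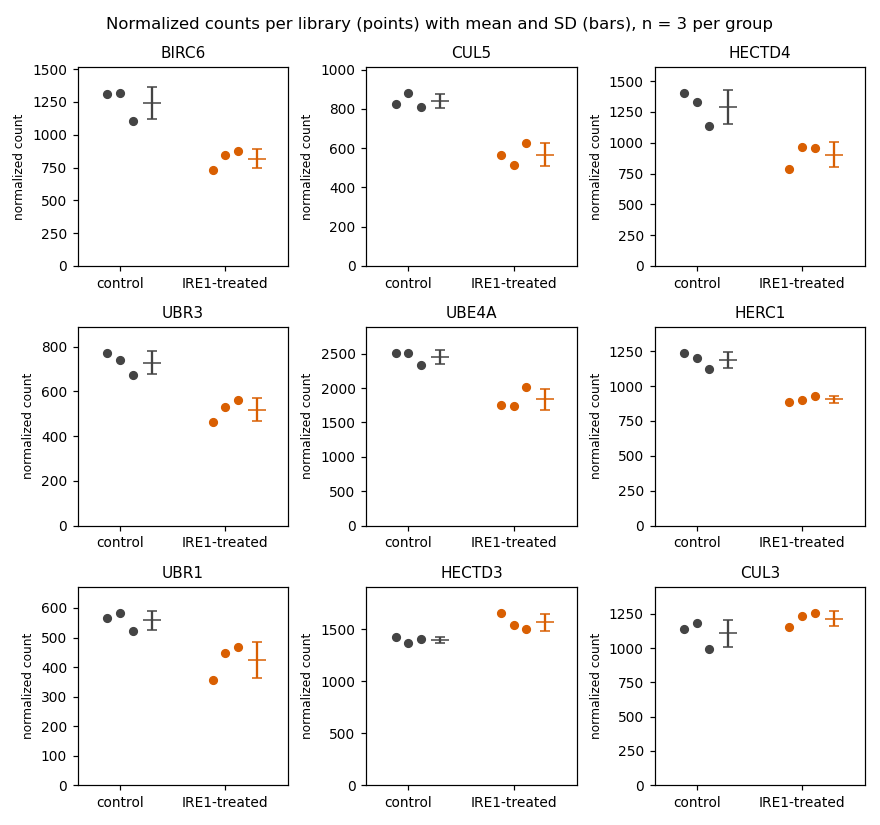
Normalized counts (vertical axes, from 0) of 9 genes in each library, as points in the order of replicates 1 to 3, with the mean and SD beside them (n = 3 per group). For BIRC6, CUL5, HECTD4, UBR3, UBE4A, HERC1 and UBR1 all IRE1-treated points lie below the control points, for HECTD3 all lie above, and for CUL3 the groups overlap.

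There were 8 members among the genes for which the study designed primers after an exon test on these libraries, so their direction is not independent evidence. Of these 8, BIRC6, HUWE1, UBR3 and CUL5 were lower at the gene level, while UBR2, UBE4B, UBA6 and CUL9 did not pass. By quantitative RT-PCR, the study found the upstream region of every candidate mRNA significantly decreased after IRE1 treatment, UBR2, UBE4B, UBA6 and CUL9 included. Counts over whole genes pool both sides of a cut, so a gene that did not pass here was not shown to be uncut. Each primer matched the longest transcript of its gene at 1 place. The forward primers began at 10.4% of the transcript's length in UBR2, 16.3% in CUL5, 19.0% in UBA6, 23.2% in UBE4B, 32.0% in CUL9, 40.4% in UBR3, 52.7% in HUWE1 and 70.0% in BIRC6, all in the coding sequence. The CUGCAG loop site of BIRC6, in exon 1, thus lay upstream of its primers in exon 55. Its other loop sites of the consensus lay on both sides of the primers, those downstream in exons 59, 68 and 73. Of the 34 tested genes without such primers, 13 were lower (38.2%) and HECTD3 was higher (2.94%), while 50% of the 8 with primers were lower. Over all tested genes these shares were 12.4% and 10.3%. The median transcript length was 7950 bases for the 8 genes and 5359.5 bases for the 34. With the length and GC trend removed, 3 of the 8 were lower and 0 higher, and 1 of the 34 was lower and 3 were higher.

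The log2 fold change fell with transcript length across the 42 genes (Spearman's rho = -0.617 across genes, which are not independent replicates), and across all 12225 tested protein-coding genes (rho = -0.627). The points share the 6 libraries and one set of TMM factors. Taking each IRE1-treated library alone against the control mean, rho over the 42 genes was -0.491, -0.579 and -0.679 in replicates 1, 2 and 3. Neither of the 2 genes with a longest transcript up to 2500 bases, NAE1 and UBA3, was lower or higher. Among protein-coding genes of that length 0.27% were lower and 28.2% higher. Over 2500 and up to 5000 bases, 2 of 14 were lower, WWP1 and HERC3, and HECTD3 was higher, beside 8.0% and 5.36% of protein-coding genes. Over 5000 and up to 8000 bases 7 of 15 were lower and 0 higher, beside 31.5% and 2.49%. Over 8000 bases 8 of 11 were lower and 0 higher, beside 45.6% and 1.44%. The class medians of the log2 fold change were 0.09, -0.09, -0.15 and -0.31 from the shortest to the longest class, beside 0.15, -0.017, -0.17 and -0.26 over protein-coding genes of the same classes.

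The 6 giants with transcripts over 14000 bases, BIRC6, HUWE1, HERC1, HERC2, HECTD4 and UBR4, were all lower, with log2 fold changes from -0.60 to -0.19. This length limit was chosen after their values were seen. Of the 150 tested protein-coding genes over that limit, 45.3% were lower. Among the giants the order did not follow length, since HERC2 (15364 bases, -0.20) is longer than HERC1 (15197 bases, -0.39). Among the 11 genes over 8000 bases, 3 did not pass the test, UBA6 with 9540 bases, UBE3A with 9352 bases and NEDD4L with 8633 bases. The rank correlation with GC content was 0.293 over the 42 genes and 0.255 over protein-coding genes, and that with the control level was 0.0908 over the 42 genes.

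**Figure D3:**
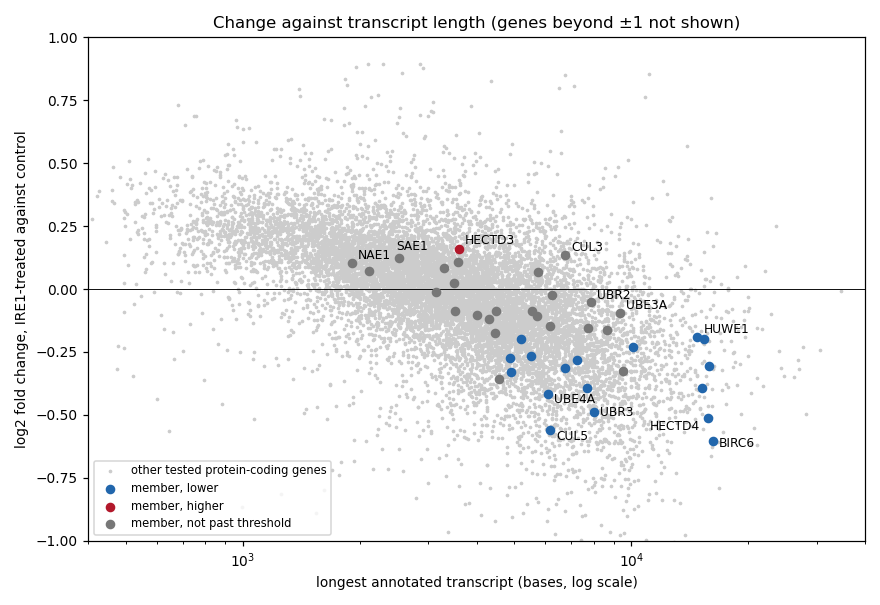
Log2 fold change (vertical axis) against the length of the longest annotated transcript in bases (horizontal axis, log scale) for the 42 genes, coloured by call, over all tested protein-coding genes (grey). The 42 genes follow the fall of the grey cloud (rho -0.617 and -0.627), with CUL5 and UBE4A low and CUL3 high for their length.

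To see which genes departed from that relation, a smooth trend with transcript length and GC content was removed from each library before the same test. Over all genes 4.4% were then lower and 7.31% higher. Of the 42 genes, 4 remained lower, CUL5 (-0.36, adjusted p = 0.00181), BIRC6 (-0.26, adjusted p = 0.00843), UBR3 (-0.25, adjusted p = 0.0189) and UBE4A (-0.24, adjusted p = 0.00262). They are 9.52% of the 42 genes, and the same 4 genes were lower in all 15 alternatives tried. Another 3 genes were higher, CUL3 (0.36, adjusted p = 0.000864), UBE3A (0.18, adjusted p = 0.0119) and HECTD3 (0.17, adjusted p = 0.0334), which are 7.14% of the 42. The sign of UBE3A thus turned from -0.10. UBE3A shares exons with 1 annotated gene on each strand, and CUL3 with 1 on the other strand. Some of their reads may therefore belong to a neighbour. HECTD4, at -0.21, missed the threshold (adjusted p = 0.0632). Of the genes that had been lower, HUWE1 (0.11), HERC2 (0.10), TRIP12 (0.05) and UBR4 (0.0027) were no longer below 0, none of them past the threshold. In all, 21 of the 42 genes were then below 0. The median over the 42 genes was -0.00055 and rho with length -0.077. The cause of the relation with length was not tested.

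**Figure D4:**
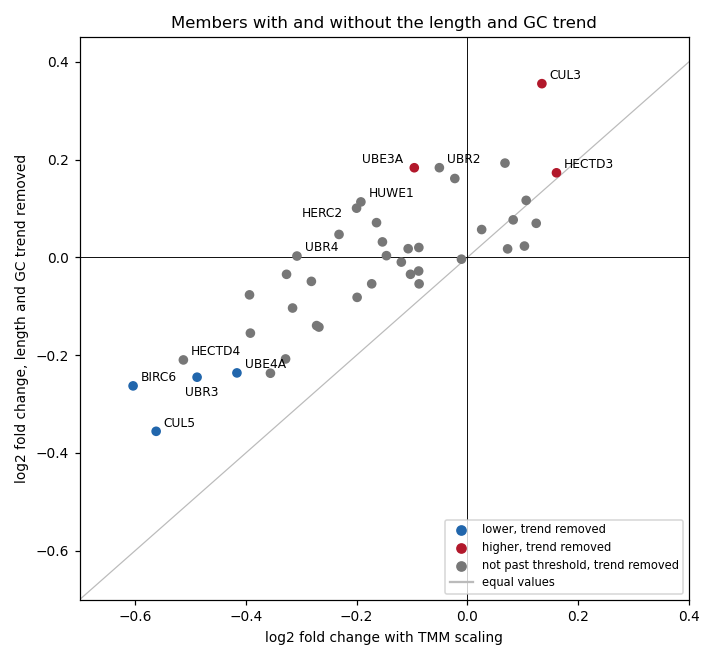
Log2 fold change of the 42 genes after the length and GC trend was removed (vertical axis) against that with TMM scaling alone (horizontal axis), with the line of equal values. CUL5, BIRC6, UBR3 and UBE4A stay lower (blue), CUL3, UBE3A and HECTD3 are higher (red), and the giants HUWE1, HERC2 and UBR4 lie at or above 0 on the vertical axis.

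A ratio of 2 genes within a library does not depend on how libraries are scaled, so 11 pairs of related or partner genes, picked after the values were seen, were also compared as ratios of counts. CUL5 relative to CUL2 was 1.17 ± 0.00857 in the controls and 0.869 ± 0.0784 after IRE1 treatment (mean ± SD, n = 3), the widest gap relative to the control spread. UBE4A relative to UBE4B was 1.68 ± 0.0845 in the controls and 1.39 ± 0.141 after IRE1 treatment. UBR1 relative to UBR2 was 0.674 ± 0.0355 in the controls and 0.534 ± 0.103 after IRE1 treatment, and WWP1 relative to WWP2 0.547 ± 0.0196 in the controls and 0.483 ± 0.0369 after IRE1 treatment. HERC1 relative to HERC2 was 0.597 ± 0.0221 in the controls and 0.523 ± 0.0271 after IRE1 treatment. For UBA2 relative to SAE1, the 2 subunits of the SUMO E1, the ratio was 0.647 ± 0.0356 in the controls and 0.554 ± 0.0448 after IRE1 treatment. The ratio of UBA3 to NAE1, the subunits of the NEDD8 E1, overlapped between the groups (0.866 ± 0.0297 in the controls and 0.867 ± 0.188 after IRE1 treatment), as did CUL7 to CUL9, SMURF1 to SMURF2, NEDD4 to NEDD4L and UBA6 to UBA1. A ratio that shifts shows unequal change of the 2 genes and not which of them changed, and the smallest exact two-sided p for such a ratio is 0.1.

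Levels between genes were compared per length, as normalized counts per kb of the longest transcript in the controls. UBA1 led with 2589 ± 27.9 (SD, n = 3), followed by SAE1 with 1310.01 ± 27.2, CUL1 with 630.2 ± 18.8, NAE1 with 587 ± 37.6 and UBA2 with 533 ± 19.5. CUL1 and NAE1 did not differ beyond their spread. ITCH (452 ± 14.5) and UBE4A (402 ± 16.6) were the highest among the ligases that were lower after IRE1 treatment. BIRC6 (76.7 ± 7.54), HERC3 (75.5 ± 1.94) and HERC1 (78.1 ± 4.004) lay close together near the lower end. The lowest of the tested genes were SMURF2 (29.96 ± 2.81) and HACE1 (22.8 ± 1.94), and HERC6 had 0.484 ± 0.201. The 5 highest places thus held 4 E1 genes and CUL1, none of which passed the test between the groups.

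**Figure D5:**
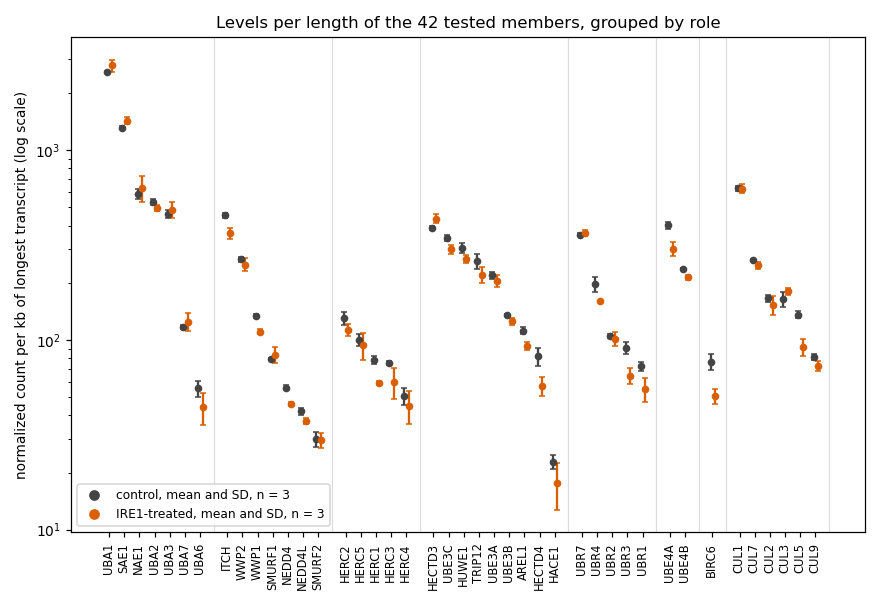
Normalized counts per kb of the longest transcript (vertical axis, log scale) of the 42 tested genes, grouped by role and ordered by the control mean, as mean and SD of 3 control (dark) and 3 IRE1-treated (orange) libraries. UBA1 is the highest at 2589 in the controls and HACE1 the lowest at 22.8.

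Of the 42 tested genes, 38 (90.5%) had at least 1 site of the consensus in a loop, beside 85.4% of tested protein-coding genes, and the 4 without one were UBA3, NAE1, UBA6 and WWP1. In all there were 206 such sites. CUGCAG in a loop was found in 22 genes (52.4%, beside 36.9% of protein-coding genes). Within length classes the share was 0 of 2 genes up to 2500 bases beside 21.8%, 7 of 14 over 2500 and up to 5000 bases beside 36.5%, 8 of 15 over 5000 and up to 8000 bases beside 48.4% and 7 of 11 above that beside 61.7%. The 35 CUGCAG sites lay in the coding sequence in 30 cases, in the 3′ untranslated region in 4 and in the 5′ untranslated region in 1, that of UBR2. UBR4 held 5 of them, HUWE1 4 and UBE3B 3, and HERC2, HECTD4, SMURF2 and CUL9 held 2 each. Of the 22 genes with such a site 10 were lower, with a median log2 fold change of -0.16, and of the 20 without it 7 were lower, also with a median of -0.16. HECTD3, the gene that was higher, and SAE1, whose libraries all lay above the controls, each had 1 such site. A match describes the sequence only, and the gene counts cannot place a cut.

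The partners with which these enzymes work were read from the same fit, as lists of E2 enzymes, cullin partners, modifiers and family relatives. Of 80 partner genes, 7 were lower (8.75%) and 21 higher (26.25%), beside 12.4% and 10.3% of all tested genes. With library size alone, 12 were lower (15%) and 11 higher (13.75%), beside 18.03% and 4.74% of all genes. The partners had a median log2 fold change of 0.07 and a median length of 3125 bases, shorter than that of the 42 genes (5912.5 bases). Of 33 E2 conjugating enzymes, 2 were lower, UBE2Z (-0.19 ± 0.05 SE, adjusted p = 0.0155), which UBA6 charges, and UBE2O (-0.16 ± 0.06 SE, adjusted p = 0.0474), a large hybrid of E2 and E3. Another 7 E2 enzymes were higher (1 with library size alone), led by UBE2L3 (0.33 ± 0.08 SE, adjusted p = 0.0102), an E2 of HECT ligases. Of 28 cullin partners and regulators, 2 were lower, the substrate receptors FBXW11 (-0.29 ± 0.07 SE, adjusted p = 0.0123) and VHL (-0.28 ± 0.08 SE, adjusted p = 0.0167). A further 7 were higher (5 with library size alone), led by the RING subunit RBX1 (0.37 ± 0.09 SE, adjusted p = 0.00855) and the adaptor ELOB (0.29 ± 0.06 SE, adjusted p = 0.00447).

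Of the 9 ubiquitin and ubiquitin-like modifiers, 7 were higher (5 with library size alone, 3 with the length and GC trend removed) and the other 2 did not pass. The ubiquitin fusion gene RPS27A had the largest change (0.42 ± 0.06 SE, adjusted p = 0.000223), followed by NEDD8 (0.32 ± 0.07 SE, adjusted p = 0.00431), and the median length of this list was 1523 bases. Among protein-coding genes up to 2500 bases, 28.2% were higher. GENCODE lists 19 pseudogenes named after RPS27A, and NEDD8 shares exons with NEDD8-MDP1 on the same strand, so both counts are uncertain. Of 10 family relatives outside the 43 genes, 3 were lower and the other 7 did not pass. CUL4B, named here after its value was seen, was at -0.25 with overlapping groups. With the length and GC trend removed, 2 partner genes were lower (2.5%) and 17 higher (21.25%), beside 4.4% and 7.31% of all genes. Leaving out control replicate 1 gave 1 lower and 11 higher partners, beside 6.68% and 4.88% of all genes. Leaving out control replicate 2 gave 2 and 11, beside 6.82% and 4.38%. The lower partners numbered 4 with control replicate 3 left out, 3 with IRE1-treated replicate 2 left out and 11 with IRE1-treated replicate 3 left out. In that order, 9.28%, 7.42% and 15.26% of all genes were lower.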

How the data were processed

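Poly(A) RNA from 3 control and 3 IRE1-treated samples was sequenced with a stranded kit. Per the labels and the study's methods, the authors trimmed reads with cutadapt 1.12, aligned them to GRCh37 (hg19) with STAR 2.5.3a and counted them per Ensembl gene with HTSeq 0.6.1p1, whose strand and overlap settings are not given in the sources used here. They deposited raw gene counts for each library. HTSeq's summary lines, 21.4 to 23.2% of all counts, name no gene and entered neither library sizes nor tests. The authors also deposited a CPM table of 12558 genes, which was used in 1 alternative only. Its log2 values were taken with a pseudocount of 1. Exon counts, on which the authors ran their own test, were not analysed here.

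From the counts, edgeR 4.0.16 (R 4.3.3) was run with filterByExpr (14398 of 24945 genes with a count were kept), TMM scaling and the quasi-likelihood test without covariates, with Benjamini-Hochberg adjustment over all tested genes and a threshold of 0.05. SE is that of the log2 fold change. The step was tested on simulated data with planted changes. Gene counts per library were 19615715 to 25678499, and counting error is part of the fit. No pair of libraries agreed within sampling noise, the lowest chi-square per gene being 2.21.

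The alternatives changed the tool (DESeq2 1.42.0, or limma 3.58.1 with the CPM that the authors deposited), the scaling (upper quartile, or library size alone) or the filter (10 counts in each library, or none). Others blocked on the replicate number, subtracted a loess fit on GC content and length (span 0.5) in each library, did both, or omitted 1 library. The genes and lists were chosen with earlier results of these data known. Values in each library are given for the genes past the threshold, the 8 genes with primers of the study and the highest and lowest of each class. Of each partner list, the 2 lowest and 2 highest genes past the threshold are named, and any other gene was named after its values were seen. Some genes under this rule are not reported here. Gene models, positions, pseudogenes and sequences came from GENCODE release 44 mapped to GRCh37, and sites were folded with ViennaRNA 2.7.2 with 15 bases on either side. P-values measure the spread between these samples.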

Additional observations from a re-analysis of the deposited data

How the results depend on the processing

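The count of lower genes was 17 to 21 under limma on the authors' CPM, DESeq2, the replicate block, library size alone, upper quartiles, and either filter (none, or 10 counts in each library). With the length and GC trend removed it was 4, and also 4 with the block and the trend removed together. Leaving out single libraries gave 9 to 21 lower and 0 to 3 higher genes, while 6.68% to 15.26% of all genes were lower and 4.38% to 14.37% higher. The count of higher genes was 0 under DESeq2, library size alone, the replicate block and no filter, and 3 with the trend removed, with or without the block. Over all genes, 3270 were called, 1685 with the trend removed, 1418 with the trend removed and the block, and 1630 to 4312 without single libraries. Partners that were lower numbered 12 with library size alone, 2 with the trend removed, 1 with the block added, and 1 to 11 without single libraries. Higher partners numbered 11 with library size alone and 11 to 25 without single libraries. The median log2 fold change became -0.00055 and, with the block, -0.00042, and rho with length became -0.077 and -0.061. Genes with a loop site numbered 22 for CUGCAG alone and 23 for loops of exactly 7 bases, beside 38. The sign turned with the trend removed, without and with the block, for HERC2 (0.10 and 0.10), HUWE1 (0.11 and 0.11), TRIP12 (0.047 and 0.048), UBR4 (0.0027 and 0.0065), UBE3A (0.18 and 0.18, past the threshold), NEDD4L (0.071 and 0.073), SMURF2 (0.16 and 0.17), UBE3B (0.018 and 0.018), UBR2 (0.18 and 0.18), UBE4B (0.0034 and 0.0039), CUL7 (0.020 and 0.019) and CUL9 (0.032 and 0.030). It also turned with library size alone for UBA3 (-0.0040), SMURF1 (-0.0074) and UBR7 (-0.049), and in at least 1 fit without a library for NAE1 (-0.020 to 0.20), SMURF1 (-0.011 to 0.13), SMURF2 (-0.092 to 0.062), HERC5 (-0.23 to 0.0048), UBR2 (-0.090 to 0.013) and CUL1 (-0.032 to 0.034). The cause was not tested. Of the other values of single genes, 519 kept their direction and side of the threshold, 53 fell short of it and 22 crossed it. Correlations of deviations between libraries of the same number were -0.036, -0.0050 and -0.11, beside -0.060 to 0.094 between libraries of unlike number. These values gave no sign of pairing by number, but with 3 libraries a group they cannot exclude it. The replicate block left 17 genes lower, 16 of them shared, with HERC2 lost and UBA6 gained, and HECTD3 no longer passed. With 3 libraries a group and RNA of 1 line, changes as small as those near the threshold depended on single libraries.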
